A study of Homo sapiens with 12 samples.

Results

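PHF10 and 9 further genes of the SWI/SNF chromatin remodelling complexes (ARID2, PBRM1, BRD7, SMARCA4, SMARCA2, SMARCB1, SMARCC1, ARID1A and ARID1B) were followed in H3K9ac chromatin immunoprecipitation sequencing (ChIP-seq) of MOLM-13 cells, a human acute myeloid leukaemia line. Every region of the table that overlapped the RefSeq body of one of these genes, with 5 kb added on each side, was taken. This gave 71 of 47648 regions, 13 of them at PHF10 and 58 at the other 9 genes. PHF10 was chosen from the measured values, because 2 regions inside the gene were among the few that were lower after treatment, so its values are given as a description without a test. One group had been treated with WM-1119, an inhibitor of the histone acetyltransferase KAT6A, at 4 µM for 4 days, and the other is labelled DMSO. Each group held 3 H3K9ac libraries, and the 6 input samples were not analysed here. No genotype or transgene is named, and both groups are the same line. The labels do not say whether the replicates were separate cultures, so the p-values measure only the spread between these libraries.

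SWI/SNF complexes use the energy of ATP to slide and evict nucleosomes. The BAF and PBAF forms are built around an ATPase, SMARCA4 or SMARCA2, and a core that holds SMARCB1 and SMARCC1. In the BAF form ARID1A or ARID1B is added, while the PBAF form carries ARID2, PBRM1, BRD7 and PHF10. The bromodomains of PBRM1 and BRD7 and the PHD fingers of PHF10 read histone tails. H3K9ac, acetylation of lysine 9 of histone H3, marks active promoters, and KAT6A acetylates histone H3. The level measured here at each gene is the mark on the subunit's own gene, not binding by the complex.

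The libraries differed in depth and in background. The listed regions held 4542322, 9996190 and 12705349 reads in WM-1119 replicates 1, 2 and 3, and 719329, 1298443 and 7481097 reads in DMSO replicates 1, 2 and 3. A count of 3 reads, the limit that a count of 0 allows, were worth 0.236 to 0.66 CPM (reads per 1000000 reads in the listed regions) in the WM-1119 libraries and 0.401 to 4.17 CPM in the DMSO libraries, for counting error only. Regions of low signal took 2.19% to 3.35% of all CPM in the WM-1119 libraries. They took 8.95%, 7.19% and 2.35% in DMSO replicates 1, 2 and 3, and on the main axis of a principal component analysis (70.9% of variance) these same replicates 1 and 2 stood alone. The marks of the line itself were in place: HOXA9, MEIS1, FLT3, CEBPA, SPI1, PTPRC and LYZ, genes of myeloid and KMT2A-rearranged leukaemia cells, carried promoter regions of 80.6 to 1137 CPM (WM-1119 means) and 68.8 to 959 CPM (DMSO means). CD33 and MPO were weak, at 2.17 and 6.54 CPM in WM-1119 cells and 5.17 and 12.6 CPM in DMSO cells, and CSF1R had no promoter region. Of the markers of other cells, PAX5, CD3E and EPCAM averaged at most 5.54 CPM in either group, and GATA1 and ALB had no promoter region.

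The sequences at the gene starts are shown because they separate the starts that lay under a strong H3K9ac region from those that did not. RefSeq promoter windows on GRCh38.p14, from 250 bases before to 50 after an annotated start, were at hand for 8 of the 10 genes, 14 windows in all, and 10 of these starts lay inside a region. Each window is written 5′ to 3′ on the strand of its gene. Capitals mark matches to the GC box with the letters GGGCGG, to the CCAAT box as its name spells it, to the TATA box with the letters TATAAA, to the ETS core with the letters CCGGAA and to the E box with the letters CACGTG. Each motif was searched on both strands, so its reverse complement is in capitals as well. Neighbouring GC boxes share bases in places.
PHF10, chr6:169724451-169724750, minus strand: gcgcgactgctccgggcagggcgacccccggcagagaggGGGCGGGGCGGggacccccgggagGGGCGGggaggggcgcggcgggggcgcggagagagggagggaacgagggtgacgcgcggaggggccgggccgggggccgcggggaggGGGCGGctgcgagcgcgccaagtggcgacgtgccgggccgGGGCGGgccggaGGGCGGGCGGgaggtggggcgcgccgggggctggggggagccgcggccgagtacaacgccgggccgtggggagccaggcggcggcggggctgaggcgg
ARID1B first start, chr6:156775776-156776075, plus strand: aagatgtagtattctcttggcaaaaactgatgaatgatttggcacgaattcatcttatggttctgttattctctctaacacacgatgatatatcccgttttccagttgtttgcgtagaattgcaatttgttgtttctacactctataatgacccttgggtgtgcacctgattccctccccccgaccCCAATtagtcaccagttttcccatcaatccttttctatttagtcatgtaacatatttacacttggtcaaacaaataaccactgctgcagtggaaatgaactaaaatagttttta
ARID1B second start, chr6:156777128-156777427, plus strand: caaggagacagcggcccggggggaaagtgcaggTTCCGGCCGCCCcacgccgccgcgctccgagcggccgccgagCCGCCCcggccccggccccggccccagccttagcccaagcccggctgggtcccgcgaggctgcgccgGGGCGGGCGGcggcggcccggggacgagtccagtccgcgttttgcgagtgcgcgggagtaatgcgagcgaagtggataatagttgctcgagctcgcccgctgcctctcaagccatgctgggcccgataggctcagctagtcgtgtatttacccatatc
SMARCA2 first start, chr9:2015097-2015396, plus strand: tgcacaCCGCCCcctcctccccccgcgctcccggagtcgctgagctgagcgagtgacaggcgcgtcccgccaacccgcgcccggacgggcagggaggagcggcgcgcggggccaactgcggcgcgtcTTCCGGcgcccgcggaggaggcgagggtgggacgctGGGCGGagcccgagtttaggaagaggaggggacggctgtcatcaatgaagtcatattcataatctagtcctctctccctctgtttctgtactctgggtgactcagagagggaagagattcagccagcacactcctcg
SMARCA2 start within the gene, chr9:2158214-2158513, plus strand: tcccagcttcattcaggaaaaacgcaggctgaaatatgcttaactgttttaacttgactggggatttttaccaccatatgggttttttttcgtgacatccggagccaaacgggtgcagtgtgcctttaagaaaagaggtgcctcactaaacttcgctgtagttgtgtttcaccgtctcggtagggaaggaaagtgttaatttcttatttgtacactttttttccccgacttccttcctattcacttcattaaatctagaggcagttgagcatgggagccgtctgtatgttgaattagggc

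The PHF10 window held 85.3% G and C, more than 99.8% of the 35116 windows in the table, with 47 CpG dinucleotides (observed over expected 1.01) and 7 GC boxes. The median window held 58.7% G and C, with an observed over expected CpG of 0.58. The first ARID1B start, with 37.7% G and C and no GC box, lay 389 bp outside the nearest region, while the second, with 72.0% and 4 GC boxes, lay inside the ARID1B promoter region. At SMARCA2 the first start, with 66.7% G and C, lay in a region that averaged 187 CPM in DMSO cells, and the start within the gene, with 43.0% and no match, lay in one that averaged 11.9 CPM. Of all windows, 45% held a GC box, 34.6% a CCAAT box, 11.5% a TATA box, 17.2% an ETS core and 7.26% an E box. Of the 14 windows here, 9 held a GC box, 3 a CCAAT box, 1 a TATA box, 2 an ETS core and 1 an E box. These matches describe letters in the window and say nothing of which factors bind there.

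At PHF10, a PBAF subunit with a pair of PHD fingers, the regions inside the gene were lower in WM-1119 than in DMSO cells while the promoter and the gene end differed little. The gene lies on the minus strand of chromosome 6 (hg38), from its start at 169724500 to its end at 169703902, 20599 bp. Regions covered 92.3% of the 27.2 kb from the region at the gene end to the promoter region, with no gap over 793 bp. Between them lay 8 internal regions of 147 to 3792 bp, each over 1 kb from both ends of the gene. Whether each lies on an exon or an intron was not worked out.

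**Figure D1:**
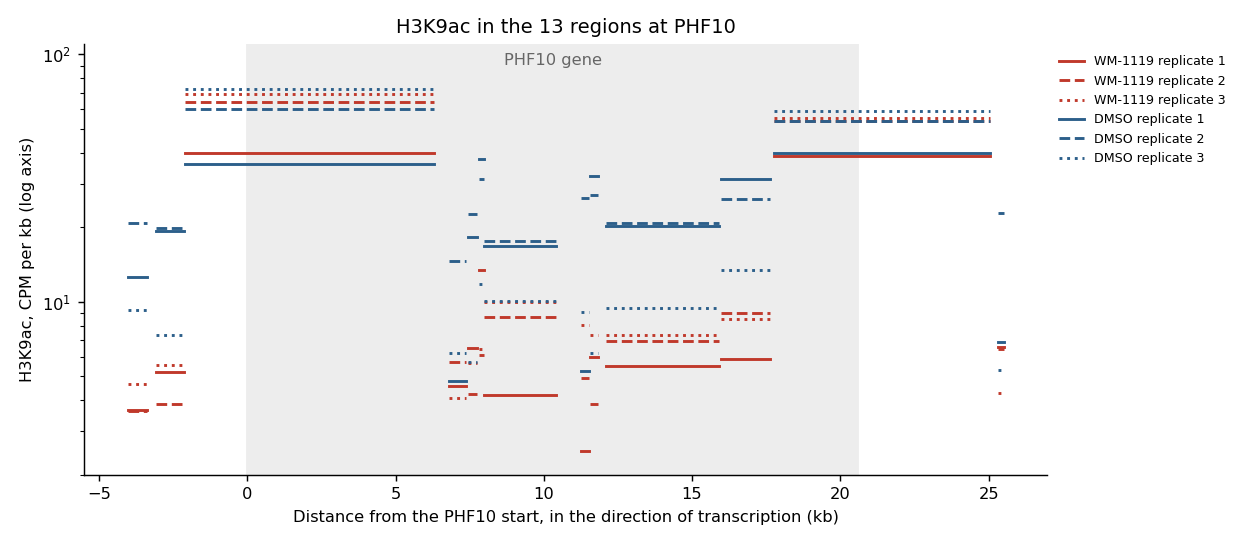
H3K9ac per kb of region (CPM per kb, log axis) against distance from the PHF10 start, along the direction of transcription, for each WM-1119 and DMSO library. The promoter and gene-end regions stand high in all 6 libraries, and in the 3 widest regions between them the lines of DMSO replicates 1 and 2 lie above the other 4.

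The PHF10 promoter region (chr6:169718184-169726583, 8400 bp), which also covers the end of the neighbouring gene DYNLT2, had 334, 539 and 580 CPM in WM-1119 replicates 1, 2 and 3 and 303, 504 and 608 CPM in DMSO replicates 1, 2 and 3. Replicate 1 was the lowest of each group and the groups overlapped throughout, with means of 484 ± 132 and 472 ± 155 CPM (SD, n = 3 each). The log2 change from limma, here always WM-1119 minus DMSO on log2(CPM + 1), was 0.06 ± 0.35 (SE). The region at the gene end (chr6:169699425-169706700), which also covers the starts of WDR27 and C6orf120, had 281, 391 and 400 CPM in WM-1119 cells and 291, 389 and 429 CPM in DMSO cells. These groups overlapped as well, with a log2 change of -0.05 ± 0.15.

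The widest internal region, chr6:169708599-169712390, centred 14.0 kb from the start, had 20.9, 26.4 and 27.9 CPM in WM-1119 cells and 76.5, 79.3 and 35.7 CPM in DMSO cells. All 3 WM-1119 libraries lay below all 3 DMSO libraries, and DMSO replicates 1 and 2 stood far above replicate 3. Its log2 change was -1.24 ± 0.23. The region next to it, chr6:169706842-169708492, 16.8 kb from the start, had 9.69, 14.8 and 14.1 CPM in WM-1119 cells and 51.4, 43.1 and 22.3 CPM in DMSO cells, a log2 change of -1.47 ± 0.28. Again the groups did not overlap, and DMSO replicate 3 was nearest to the WM-1119 libraries. The remaining strong internal region, chr6:169714075-169716480, 9.2 kb from the start, had 10.1, 20.9 and 23.9 CPM in WM-1119 cells and 40.3, 42.4 and 24.3 CPM in DMSO cells. Here the gap between the groups was only that between WM-1119 replicate 3 and DMSO replicate 3, and the log2 change was -0.97 ± 0.27. Among internal regions of coding genes with at least 10 CPM, 16.6% had all WM-1119 libraries below all DMSO libraries. The other 5 internal regions were short and weak, with means of 1.28 to 2.77 CPM in WM-1119 cells and 3.58 to 5.63 CPM in DMSO cells, and log2 changes of -1.24 to -0.55. Since 3 reads were worth 4.17 CPM in DMSO replicate 1, single values of these 5 regions rest on few reads.

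**Figure D2:**
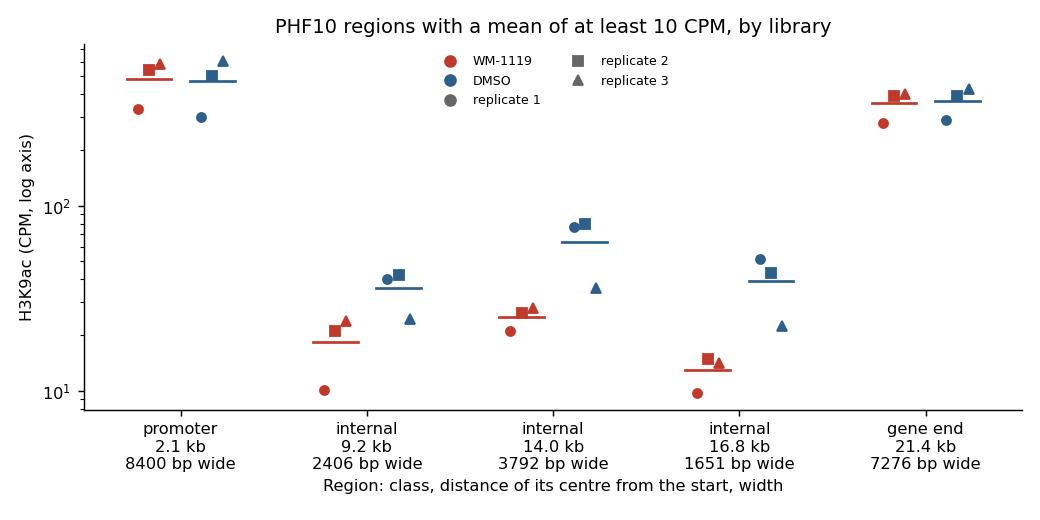
H3K9ac (CPM, log axis) of the PHF10 promoter, gene-end and 3 strongest internal regions in each library, with WM-1119 left of DMSO and bars at group means. The groups overlap at the promoter and the gene end and are apart at the 3 internal regions, where DMSO replicate 3 is the lowest of the DMSO libraries.

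The 2 internal regions with the lowest log2 changes among those of at least 10 CPM, -1.47 and -1.24, were the ones that passed the threshold in limma (Benjamini-Hochberg adjusted over 44763 regions tested, 0.05). Of all tested regions, 27 (0.0603%) passed in this direction and none (0%) in the other, where 1153 (2.58%) had an unadjusted p under 0.05 and edgeR also called 0. These totals moved with the setting: 384 lower and 112 higher with the replicate block, 63 lower and 31 higher with background subtracted, and 17206 lower and 2394 higher without DMSO replicate 3. As these calls chose the gene, nothing is read from their share here. Neither passed without DMSO replicate 1 or without DMSO replicate 2, although the log2 changes were still -1.23 and -1.07 in the first case and -1.36 and -1.04 in the second, whereas without DMSO replicate 3 the regions of all 10 genes that passed numbered 38 lower and 7 higher. Against DMSO replicate 3 alone, assumed to vary like the WM-1119 libraries, the log2 changes of the 3 strong internal regions were -0.77, -0.50 and -0.47 in order of rising coordinate, and that of the promoter region was -0.37. In edgeR's quasi-likelihood test on recovered reads of 5 libraries neither of the 2 called regions passed. It called 0 of the 45003 regions it tested in either direction, so it cannot set these 2 apart from the others.

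Background on chromosome 6 moved in the same direction. The 10th percentile of signal over short regions of the chromosome was 5.73, 5.08 and 4.44 CPM per kb in WM-1119 replicates 1, 2 and 3, and 12.2, 10.8 and 3.91 CPM per kb in DMSO replicates 1, 2 and 3. Over the genome it was 3.71 to 4.38 CPM per kb in WM-1119 libraries and 8.05, 7.44 and 3.36 CPM per kb in the DMSO libraries. The PHF10 internal regions together held 5.27, 7.44 and 7.97 CPM per kb in WM-1119 cells and 20.4, 21.1 and 9.94 CPM per kb in DMSO cells. As a ratio to the background of the same library, these were 0.919, 1.46 and 1.79 in WM-1119 cells and 1.67, 1.96 and 2.54 in DMSO cells, which overlap between WM-1119 replicate 3 and DMSO replicate 1. With the background of each library and chromosome subtracted, the log2 changes of the 3 strong internal regions, in the same order, were -2.85, -3.02 and -1.83. These sizes depend on the pseudocount, since WM-1119 replicate 1 was then at 0.284, 0 and 0 CPM, the zeros being clipped values. The part of background in the difference was not tested. In a cell population, fewer cells with the mark and less mark in each cell cannot be told apart, and a change common to all regions cannot be seen in CPM, which sum to the same total in every library.

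The promoter served as a reading of the same library at the same gene. Summed over internal regions, PHF10 had 49.5, 69.9 and 74.9 CPM in WM-1119 cells and 192, 199 and 93.4 CPM in DMSO cells. This was 12.9%, 11.5% and 11.4% of internal plus promoter signal in WM-1119 replicates 1, 2 and 3, and 38.8%, 28.3% and 13.3% in DMSO replicates 1, 2 and 3. The internal minus promoter log2 value was -2.73, -2.93 and -2.94 in WM-1119 cells and -0.66, -1.34 and -2.69 in DMSO cells, a difference of -1.30 between group means. The lowest DMSO value, of replicate 3, lay just above the highest WM-1119 value, and against DMSO replicate 3 alone the difference was -0.18. Leaving out 1 library at a time, it ran from -1.87 without DMSO replicate 3 to -0.85 without DMSO replicate 1.

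Other subunit genes had a difference of like size. It was -1.27 for ARID2, -1.29 for SMARCA2 and -1.45 for ARID1A, in each of which all WM-1119 libraries lay below all DMSO libraries (two-sided exact permutation p = 0.1, the smallest that 3 against 3 can give, adjusted 0.267 over 8 genes). SMARCA4 with -1.41 and PBRM1 with -1.15 had overlapping groups (exact permutation p = 0.3 and adjusted 0.48 for each). BRD7 with -0.48 (adjusted 0.533), SMARCB1 with -0.32 (adjusted 0.8) and ARID1B with -0.16 (adjusted 0.571, exact permutation) were smaller, and SMARCC1 had no internal region. The internal sum of BRD7 was 0.22 to 1.4 CPM in WM-1119 libraries and 0.134 to 2.78 CPM in DMSO libraries. That of SMARCB1 was 1.5 to 3.96 and 0.668 to 11.1 CPM. Both rest on few reads and average below the 10 CPM asked of the coding genes compared next. The internal sum of SMARCA2 was 7.5 to 8.03 CPM in WM-1119 libraries and 8.42 to 23.1 CPM in DMSO libraries. That of ARID1A was 7.9 to 9.76 and 11.5 to 32 CPM, and that of SMARCA4 4.25 to 7.49 and 5.35 to 29.2 CPM. These sums average 10 CPM only through the DMSO libraries, so nothing is read from the direction of their differences. Across 2113 coding genes with at least 10 CPM in both kinds of region, 17.7% had all WM-1119 libraries lower and 1.23% higher. The median difference there was -0.70, with quartiles of -1.04 and -0.28, and 158 genes (7.48%) were at or below PHF10. As PHF10 was chosen for its lower internal regions in this same contrast, its place among these genes is a description and not a test. The median of the 8 other subunit genes, -1.21, was 0.20 against DMSO replicate 3 alone.

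**Figure D3:**
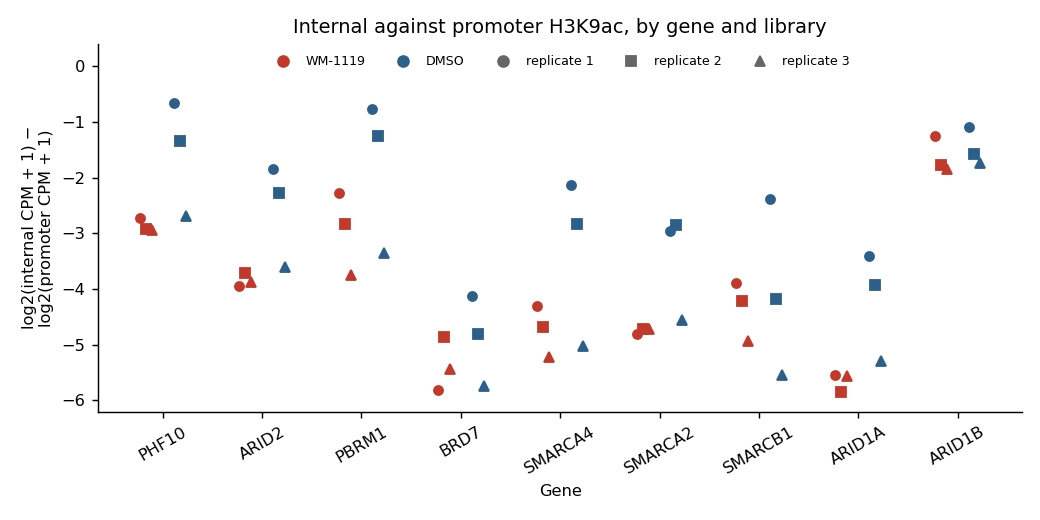
Internal minus promoter H3K9ac (log2, per library) for the 9 SWI/SNF genes with an internal region, WM-1119 left of DMSO. At PHF10, ARID2, SMARCA2 and ARID1A every WM-1119 library lies below every DMSO library, and in each the DMSO library closest to them is replicate 3.

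Among the 9 other genes none of the 54 tested regions passed in limma in either direction, with adjusted p from 0.334 to 0.962. At an unadjusted p under 0.05, 7 were lower and 4 higher, beside 10.8% lower and 2.58% higher over all regions. EdgeR called none of them, as it called none in the whole table. Groups did not overlap in 10 lower regions and 1 higher, beside 13.2% and 3.76% of all tested regions. All 9 promoter regions had a positive log2 change, with a median of 0.22, beside 0.20 over 5489 promoter regions of coding genes with at least 50 CPM and -0.47 over all tested regions. This direction moved with the scaling, with 5 positive and 4 negative after quantile normalization and 3 positive and 6 negative against DMSO replicate 3 alone. Of the 36 tested internal regions 34 had a negative log2 change, with a median of -0.78, beside 18411 of the 20112 tested internal regions of coding genes, with a median of -0.63. Several of the 36 averaged under 1 CPM in WM-1119 cells and passed the minimum mean of 1 CPM only through the DMSO libraries. Examples lay in ARID1A (0.324 CPM in WM-1119 and 2.31 CPM in DMSO cells) and ARID1B (0.611 and 2.64 CPM). The sign of such regions was largely set by the filter, so nothing is read from this count. Only 5 of these 36 reached 10 CPM, with a median of -0.85, beside -0.29 over 3049 internal regions of coding genes with at least 10 CPM. Those of ARID2 averaged 7.09 to 9.76 CPM in WM-1119 cells and 15.5 to 19.3 CPM in DMSO cells. They reached that mean only through the DMSO libraries, so nothing is read from this median either.

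In the PBAF genes, ARID2, a DNA-binding subunit needed to assemble PBAF, had the widest promoter region (chr12:45723782-45734179, 10398 bp), which also covers LINC00938. It had 526, 560 and 626 CPM in WM-1119 cells and 371, 496 and 628 CPM in DMSO cells. The groups overlapped only through DMSO replicate 3, and the log2 change was 0.22 ± 0.14 (adjusted p = 0.413). ARID2 had 12 internal regions, the most of any of the genes. The one with the highest mean, chr12:45774190-45775627, had 8.81, 10.6 and 9.84 CPM in WM-1119 cells and 25, 21.6 and 11.2 CPM in DMSO cells, a log2 change of -0.85 ± 0.34 (adjusted p = 0.342). A second, chr12:45778281-45779876, had 4.84, 12.3 and 12.1 CPM in WM-1119 cells and 13.9, 26.2 and 16.6 CPM in DMSO cells, a log2 change of -0.93 ± 0.36 (adjusted p = 0.339). In both, all WM-1119 libraries lay below all DMSO libraries, and against DMSO replicate 3 alone the changes were -0.19 and -0.80.

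PBRM1, the PBAF subunit with several bromodomains, shares its promoter region (chr3:52684289-52687923) with the start of GNL3. The region had 133, 133 and 138 CPM in WM-1119 cells and 83.4, 101 and 143 CPM in DMSO cells, with DMSO replicate 3 above all the others and a log2 change of 0.34 ± 0.17 (adjusted p = 0.371). Inside the gene, chr3:52670134-52671604 had 19.6, 12.6 and 6.85 CPM in WM-1119 cells and 33.4, 25.4 and 8.15 CPM in DMSO cells. Replicate 3 was the lowest of each group, and the log2 change of -0.64 ± 0.41 (adjusted p = 0.423) was 0.51 against DMSO replicate 3 alone. A weak region of 327 bp near the start, chr3:52683843-52684169, averaged 0.784 CPM in WM-1119 cells and 3.6 CPM in DMSO cells, and passed the filter on low values (a mean of 1 CPM over the 6 libraries) through the DMSO libraries, on few reads. BRD7, a bromodomain subunit, had the promoter region chr16:50367217-50369562 with 67.6, 69.3 and 65.6 CPM in WM-1119 cells and 65.3, 70.1 and 59.6 CPM in DMSO cells. These 6 values were the closest together of the promoter regions described, and the log2 change was 0.06 ± 0.18 (adjusted p = 0.853). Its 1 internal region averaged 0.724 CPM in WM-1119 cells and 1.48 CPM in DMSO cells, and passed the filter through the DMSO libraries.

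The ATPase gene SMARCA4 had its promoter region at chr19:10960103-10962645, with 168, 175 and 195 CPM in WM-1119 cells and 132, 138 and 207 CPM in DMSO cells. DMSO replicate 3 was the highest of all, and the log2 change was 0.20 ± 0.16 (adjusted p = 0.481). The 325 bp region just inside the gene, chr19:10962786-10963110, had 1.76, 1.2 and 1.26 CPM in WM-1119 cells and 15.3, 4.62 and 2.81 CPM in DMSO cells, a log2 change of -1.56 ± 0.57 (adjusted p = 0.334), the lowest log2 change of all member regions. It rests on few reads in DMSO replicates 1 and 2, where 1 read was worth 1.39 and 0.77 CPM. The log2 change was -0.95 without DMSO replicate 1 and -0.67 against DMSO replicate 3 alone. Chromosome 19 also had a high background in DMSO replicates 1 and 2, of 10.6 and 10.2 CPM per kb, against 3.81 in DMSO replicate 3 and 4.06 to 5.26 in WM-1119 libraries. The other ATPase gene, SMARCA2, had the promoter region chr9:2013983-2018945, with 248, 223 and 235 CPM in WM-1119 cells and 170, 173 and 219 CPM in DMSO cells. It was the 1 member region in which every WM-1119 library lay above every DMSO library, and its log2 change of 0.34 ± 0.15 did not pass (adjusted p = 0.354). The region at the start within SMARCA2 shown above, chr9:2157687-2158847, had 5.06, 6.10 and 7.08 CPM in WM-1119 cells and 12.5, 16.2 and 6.95 CPM in DMSO cells. The groups overlapped through DMSO replicate 3, and the log2 change was -0.80 ± 0.43 (adjusted p = 0.382).

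The core subunit gene SMARCB1 had the promoter region chr22:23786520-23788331, with 73.3, 69.8 and 75.6 CPM in WM-1119 cells and 62.6, 72.4 and 77.0 CPM in DMSO cells. The groups overlapped throughout, and the log2 change was 0.05 ± 0.18 (adjusted p = 0.869). Its strongest internal region, of 306 bp, averaged 0.965 CPM in WM-1119 cells and 2.2 CPM in DMSO cells, and a 220 bp region before the start averaged 0.639 CPM in WM-1119 cells and 2.64 CPM in DMSO cells. Both passed the filter through the DMSO libraries. SMARCC1, a scaffold subunit of the core, had a single region, its promoter, at chr3:47779222-47783234. It had 176, 165 and 177 CPM in WM-1119 cells and 135, 148 and 183 CPM in DMSO cells, with a log2 change of 0.16 ± 0.15 (adjusted p = 0.537).

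ARID1A, the DNA-binding subunit of BAF, had the promoter region chr1:26691710-26700412, with 458, 511 and 508 CPM in WM-1119 cells and 348, 377 and 487 CPM in DMSO cells. Only DMSO replicate 3 reached the range of the WM-1119 libraries, and the log2 change was 0.30 ± 0.14 (adjusted p = 0.356). Its strongest internal region, chr1:26743850-26744763, had 4.84, 4.40 and 5.98 CPM in WM-1119 cells and 11.1, 10.8 and 6.82 CPM in DMSO cells, a log2 change of -0.78 ± 0.46 (adjusted p = 0.397). All WM-1119 libraries lay below all DMSO libraries there. A 157 bp region, with means of 0.324 CPM in WM-1119 cells and 2.31 CPM in DMSO cells, passed the filter on low values through the DMSO libraries, on few reads. ARID1B, its paralog and alternative in BAF, lies on chromosome 6 like PHF10. Its promoter region, chr6:156776415-156782876, had 425, 501 and 506 CPM in WM-1119 cells and 303, 395 and 508 CPM in DMSO cells, a log2 change of 0.27 ± 0.14 (adjusted p = 0.376).

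ARID1B had 7 internal regions, and 1 of them held most of their signal. This region, 245.5 kb into the gene at chr6:157020410-157022718, had 161, 130 and 127 CPM in WM-1119 cells and 89.0, 103 and 141 CPM in DMSO cells. The groups overlapped through DMSO replicate 3, the log2 change was 0.35 ± 0.17 (adjusted p = 0.365), and against DMSO replicate 3 alone it was -0.02. The other 6 internal regions were weak and had log2 changes of -1.07 to -0.28. The internal share of internal plus promoter signal was 29.4%, 22.5% and 21.6% in WM-1119 cells and 31.9%, 25% and 23.0% in DMSO cells. On the same chromosome the strong internal regions of PHF10, at 12.9 to 25.1 CPM in WM-1119 cells and 35.7 to 63.8 CPM in DMSO cells on average, had negative log2 changes, and the one of ARID1B, at 140 ± 18.8 and 111 ± 26.8 CPM, a positive one. The difference between the genes was not tested.

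**Figure D4:**
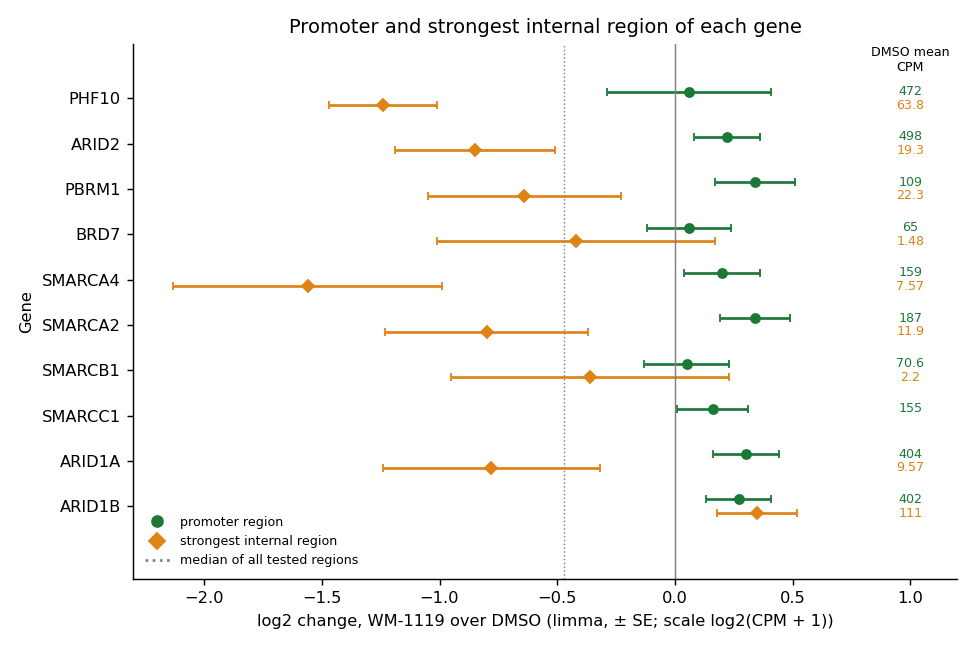
Log2 change (WM-1119 minus DMSO, on log2(CPM + 1)) with its standard error for the promoter region (circles) and the strongest internal region (diamonds) of each gene, with the mean CPM in DMSO cells at the right and a dotted line at the median of all tested regions. Promoter regions lie between 0.05 and 0.34, and the strongest internal regions other than that of ARID1B lie below 0.

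Per kb of region, promoter signal was ordered in DMSO cells as SMARCA4, ARID1B, PHF10, ARID2, ARID1A, SMARCB1, SMARCC1, SMARCA2, PBRM1 and BRD7. SMARCA4 stood at 70.4 CPM per kb in WM-1119 cells and 62.5 ± 16.3 in DMSO cells (SD, n = 3). PHF10 followed ARID1B, at 57.7 ± 15.7 CPM per kb in WM-1119 cells and 56.2 ± 18.5 in DMSO cells. BRD7 stood last, at 28.8 CPM per kb in WM-1119 cells and 27.7 ± 2.23 in DMSO cells. The ranges of every neighbouring pair in this order overlapped over the 3 DMSO libraries. Within each of these 3 libraries ARID1B stood above PHF10, PHF10 above ARID2, ARID1A above SMARCB1 and SMARCA2 above PBRM1, while the other neighbouring pairs changed places between libraries.

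Of 19 other SWI/SNF subunit genes, all but ACTL6B had a tested promoter region, and none of the 18 passed in limma (adjusted p 0.337 to 0.969). None passed in edgeR, which called no region of the whole table. Their median log2 change was 0.30, with 14 positive and 4 negative, beside 67.6% positive over the promoters of 10309 coding genes and 88.1% over those with at least 50 CPM. At an unadjusted limma p under 0.05, 7 were higher and none lower, beside 9.55% higher over all those promoters and 15.9% over those with at least 50 CPM. SMARCE1, a DNA-bending core subunit, had 164 ± 10.4 CPM in WM-1119 cells and 124 ± 37.5 CPM in DMSO cells, a log2 change of 0.44 ± 0.16 (adjusted p = 0.337). SS18, known from the fusion of synovial sarcoma, had 109 ± 8.35 CPM in WM-1119 cells and 81.5 ± 5.19 CPM in DMSO cells (0.41 ± 0.17, adjusted p = 0.344). SMARCD2, a subunit needed for granulocyte development, had 137 ± 11.9 CPM in WM-1119 cells and 106 ± 28.8 CPM in DMSO cells, and SS18L1, the paralog of SS18, 193 ± 4.91 and 151 ± 29.6 CPM (adjusted p = 0.345 for each). Only SS18 and SS18L1 had groups that did not overlap, beside 13.6% higher over all those promoters and 19.1% over those with at least 50 CPM. Against DMSO replicate 3 alone the median of the list was 0.01, and after quantile normalization it was 0.12.

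In a list of other remodellers, of the ISWI, CHD and INO80 families with HELLS and SMARCAD1 added, 18 of 19 genes had a tested promoter region. None passed in limma (adjusted p 0.33 to 0.993) or in edgeR, which called no region of the whole table. Their median log2 change was 0.26, with 15 positive and 3 negative, beside 67.6% positive over the promoters of coding genes and 88.1% over those with at least 50 CPM. At an unadjusted limma p under 0.05, 4 were higher and none lower, beside 9.55% higher over all those promoters and 15.9% over those with at least 50 CPM. Groups did not overlap in 2, SMARCA5 and BPTF, both higher, beside 13.6% over all those promoters and 19.1% over those with at least 50 CPM. These 2 were named after their values were seen. INO80, an ATPase that exchanges and spaces nucleosomes, had 179 ± 9.51 CPM in WM-1119 cells and 135 ± 36.9 CPM in DMSO cells, a log2 change of 0.45 ± 0.16 (adjusted p = 0.33). SRCAP, which loads H2A.Z, had 149 ± 0.694 CPM in WM-1119 cells and 119 ± 27.3 CPM in DMSO cells (adjusted p = 0.363). RUVBL1, an AAA ATPase of the INO80 family complexes, had 63.6 CPM in WM-1119 cells and 49.1 CPM in DMSO cells (adjusted p = 0.364), and CHD1, which binds methylated H3K4, 188 and 151 CPM (adjusted p = 0.373). Against DMSO replicate 3 alone the median of these genes was -0.02.

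The internal regions most like the widest PHF10 one, by Pearson correlation of log2(CPM + 1) over the 6 libraries, lay in SNX30 (r = 0.996), SLC29A2 (0.996), DENND1B (0.995), SH3PXD2A (0.994) and HNRNPF (0.991). The region in SNX30, chr9:112861372-112864222, had 11.7, 15.3 and 13.8 CPM in WM-1119 cells and 43.1, 43.9 and 19.6 CPM in DMSO cells, a log2 change of -1.25. It shares with PHF10 the step down at DMSO replicate 3. High correlations were common: 385 of 3046 internal regions (12.6%) had r over 0.9, and the median was 0.62. The part of library depth and background in these correlations was not tested.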

How the data were processed

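H3K9ac ChIP-seq of MOLM-13 cells was compared between 3 WM-1119 and 3 DMSO libraries, whose titles give group and replicate number. Per the submitters' processing notes, Bowtie2, SAMtools, MACS2, bedtools and hg38 were used. For versions, roles and duplicate removal, nothing is given in the sources used here. The table has 1 column per library, per the file headers. The authors name the unit TPM, yet what they deposited is CPM, since every value is a read count per 1000000 listed reads with no division by width. Starts were read as counted from 0, and 1 was added.

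Regions averaging 1 CPM or more were fitted with limma 3.58.1 in R 4.3.3 (trend and robust) on log2(CPM + 1) with no covariate. The Benjamini-Hochberg adjustment ran over 44763 regions. The design had assumed width-scaled values, and the same test was used. A promoter region overlapped 1 kb on either side of the RefSeq start. An internal region overlapped the gene body over 1 kb from both ends. Strand came from the RefSeq promoter table, and for ARID2 and SMARCC1 the start was taken as the end with the strongest region. Named regions were every one at PHF10 and, for each other gene, the promoter, the strongest internal region and the one with the smallest p; of the other lists the 4 smallest p, and the 5 regions most like PHF10. A marker on the list for other cells is not reported here. Members and lists were chosen with earlier results of these data known.

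Alternatives were leaving out libraries, a replicate block, median centring, quantile normalization, pseudocounts of 0.1 and 5, a minimum mean of 10 CPM, no minimum, a plain limma variance model, a promoter distance of 2 kb, and subtracting a background. The background was the 10th percentile of CPM per bp per library and chromosome over regions wider than 500 bp but no wider than 1200 bp. It left 80.8% to 84.5% of CPM in WM-1119 libraries and 63.3%, 66.3% and 85.9% in DMSO replicates 1, 2 and 3. edgeR 4.0.16 (quasi-likelihood, TMM) was run on reads recovered from 5 libraries, where 100% of values of up to 100 reads lay within 0.02 of a whole number. WM-1119 replicate 2 was left out of it because its step lies near a round value. No library was a copy of another (chi-square per degree of freedom at least 1.67). Simulated counts were used to check that limma recovers known changes. Exact tests came from scipy 1.17.1, figures from matplotlib 3.10.9, and tables from pandas 2.3.3 with numpy 2.4.6 under Python 3.11.15.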

Additional observations from a re-analysis of the deposited data

How the results depend on the processing

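Of the regions of the 10 genes, 2 were called lower, both in PHF10. With a minimum mean of 10 CPM, quantile normalization, median centring, a limma model without trend and robust, or edgeR, 0 were. Few regions of the whole table were called lower there: 2 of 14323 with that minimum, 1 of 44763 with quantile normalization and 0 in the others. Nothing particular to PHF10 is read from this loss. The log2 changes of the 2 PHF10 regions stayed at -1.47 and -1.24 with that minimum and in the plain model. They were -1.38 and -1.31 with quantile normalization and -0.70 and -0.47 with median centring. Without DMSO replicates 1 and 2 they were -0.77 and -0.50, and in edgeR -1.10 and -0.81. With the replicate block 4 regions of the 10 genes were called lower, beside 384 of all 44763 regions. Leaving out 1 library gave 0 to 38 lower and 0 to 7 higher regions of the 10 genes. It gave 0 to 11 calls in the other SWI/SNF subunits and 0 to 7 in the other remodellers. Each count was highest without DMSO replicate 3, where 17206 of 45326 tested regions were called lower and 2394 higher. The share of all promoters called there was not worked out, so nothing is read from these counts. Same-numbered deviations had correlations of 0.22, 0.05 and 0.33, above the other pairings for DMSO replicates 1 and 3. DMSO replicate 2 had 0.06 with WM-1119 replicate 1, close to its 0.05, and the remaining pairings were negative. Whether replicate numbers pair the samples was not settled, and the main fit used no replicate block. The PHF10 internal minus promoter change was -0.18 without DMSO replicates 1 and 2 and -2.86 with background subtracted, where regions of WM-1119 replicate 1 were clipped at 0, and the median of the other genes turned to 0.20 in the first case. Leaving out 1 library, these ran from -1.87 to -0.85 and from -1.81 to -0.72.

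Without DMSO replicates 1 and 2 the internal minus promoter change turned to 0.41 for PBRM1, 0.37 for BRD7, 0.29 for SMARCA4, 1.19 for SMARCB1 and 0.10 for ARID1B. Promoter changes turned there to -0.37 for PHF10, -0.14 for ARID2, -0.08 for PBRM1, -0.21 for SMARCA4, -0.08 for SMARCB1, -0.09 for SMARCC1 and -0.09 for ARID1B, and the strongest internal regions to 0.51 for PBRM1 and -0.02 for ARID1B. With quantile normalization the internal minus promoter change turned to 0.27 for BRD7, 0.59 for SMARCB1 and 0.05 for ARID1B. Promoter changes turned there to -0.14 for PHF10, -0.09 for BRD7, -0.01 for SMARCA4, -0.09 for SMARCB1 and -0.04 for SMARCC1, and weak internal regions to 0.16 for BRD7 and 0.22 for SMARCB1. The PHF10 gene end turned to 0.72 with median centring and 0.26 in edgeR. Median centring turned the strongest internal regions of PBRM1, BRD7 and SMARCB1 to 0.13, 0.35 and 0.42. Background subtraction turned the promoters of BRD7 and SMARCB1 to -0.03 and -0.07. Leaving out 1 library, the PHF10 promoter ran from -0.23 to 0.30 and its gene end from -0.21 to 0.12, the promoter of BRD7 ran from -0.0035 to 0.11 and that of SMARCB1 from -0.03 to 0.11, and the internal minus promoter changes from -1.08 to 0.50 for SMARCB1 and from -0.35 to 0.03 for ARID1B. The median over all tested regions was -0.47, and 0.01 with quantile normalization, 0.30 with median centring, -0.13 in edgeR and 0.06 without DMSO replicates 1 and 2. The cause of these changes of direction was not tested. Depth limits the weak regions most, since 1 read was worth 1.39 CPM in DMSO replicate 1.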

Other observations

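The regions nearest to the ends of the PHF10 window are described as well. Upstream of the gene, chr6:169726637-169727568 in DYNLT2 had 4.84, 3.60 and 5.19 CPM in WM-1119 cells and 18.1, 18.5 and 6.82 CPM in DMSO cells. Its log2 change was -1.37 ± 0.44 (limma adjusted p = 0.31), and -0.51 against DMSO replicate 3 alone. Also in DYNLT2, chr6:169727837-169728498 had 2.42, 2.40 and 3.07 CPM in WM-1119 cells and 8.34, 13.9 and 6.15 CPM in DMSO cells. Its change was -1.46 ± 0.51 (limma adjusted p = 0.321), and -0.98 against DMSO replicate 3 alone. In both, all WM-1119 libraries lay below all DMSO libraries, as in 13.2% of all tested regions. On the gene-end side, chr6:169699027-169699228 in WDR27 had 1.32, 1.30 and 0.866 CPM in WM-1119 cells and 1.39, 4.62 and 1.07 CPM in DMSO cells. These groups overlapped, with a log2 change of -0.49 ± 0.57 (limma adjusted p = 0.603). Just outside the 5 kb window, chr6:169698376-169698826 in WDR27 had 1.76, 1.80 and 2.13 CPM in WM-1119 cells and 15.3, 9.24 and 2.67 CPM in DMSO cells. On the other side, chr6:169750160-169753142 at DYNLT2 and ERMARD had 212, 229 and 241 CPM in WM-1119 cells and 149, 174 and 240 CPM in DMSO cells, a log2 change of 0.30.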
